A study of Homo sapiens with 12 samples.

Results

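The miR-17~92 polycistron is a single primary transcript that carries 6 microRNA hairpins, and its mature strands were followed here in K562, a human erythroleukaemia cell line. Members were taken by name: 10 strands of the 6 hairpins were looked for, and 9 had a row in at least 1 of the 2 tables used, of 952 microRNAs with a row in either. Small RNA was sequenced in 12 libraries, which the depositors describe as biological triplicates of 4 lines. In 1 comparison, sgCYRANO cells, which received a guide targeting CYRANO, a long non-coding RNA, were compared with sgNT cells, which received a guide with no target. In the other, ZSWIM8 KO cells (genotype ZSWIM8-/-) were compared with WT cells, and the labels name no guide for either of these lines. The labels do not say whether a line came from 1 clone.

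A microRNA gene is transcribed, cut to a hairpin in the nucleus and cut again in the cytoplasm to a short duplex. One arm of the duplex, the guide, is usually kept by an Argonaute protein, and the other, the passenger, is usually lost. The guide finds target messenger RNAs mainly through its seed, the bases next to its 5′ end. The miR-17~92 transcript is activated by MYC, is amplified or overexpressed in lymphomas and leukaemias, and supports the growth and survival of blood progenitors. In target-directed microRNA decay, a target that pairs extensively with a microRNA leads to destruction of Argonaute and loss of that microRNA. ZSWIM8 is the substrate receptor of the ubiquitin ligase in this process, and CYRANO is the target that does this to miR-7.

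Mature sequences are given because the strands fall into families by seed, and because some differ at so few bases that reads could be exchanged between them. They are RefSeq sequences on GRCh38.p14, 5′ to 3′, with bases 2 to 8, the seed, in capitals; all 10 members matched the RefSeq table. The miR-17 family, with the seed AAAGUGC, acts on cell cycle regulators such as E2F1.
hsa-miR-17-5p: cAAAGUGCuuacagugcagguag
hsa-miR-20a-5p: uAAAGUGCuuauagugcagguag
The miR-18 strand carries a seed that differs from that of miR-17-5p by A4G, with positions counted from 1 at the 5′ end.
hsa-miR-18a-5p: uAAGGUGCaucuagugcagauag
The miR-19 family is the part of the transcript most needed for lymphoma growth in mouse models.
hsa-miR-19a-3p: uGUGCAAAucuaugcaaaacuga
hsa-miR-19b-3p: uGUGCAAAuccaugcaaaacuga
The miR-92 family is shown with its relative miR-25-3p, from another transcript.
hsa-miR-92a-3p: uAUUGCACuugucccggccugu
hsa-miR-25-3p: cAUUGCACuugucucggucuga
The strand with the lowest log2 fold change in ZSWIM8 KO over WT among the members is the 5p arm of the last hairpin, and it is shown with its counterpart in the miR-25 hairpin.
hsa-miR-92a-1-5p: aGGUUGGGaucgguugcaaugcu
hsa-miR-25-5p: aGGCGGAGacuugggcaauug

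Between miR-19a-3p and miR-19b-3p the 1 difference was U11C, and miR-17-5p and miR-20a-5p differed by C1U and C12U. The mature miR-92a-3p and miR-25-3p shared 18 of 22 bases, whereas miR-92a-1-5p and miR-25-5p shared 10 of the 21 compared from their 5′ ends. No source used here says how reads that match more than 1 place were counted, so values within each of these families are uncertain. Copies matter as well: miR-19b-3p and miR-92a-3p have identical second copies in hairpins on chromosome X, MIR19B2 and MIR92A2, and their reads cannot be told apart. In contrast, miR-92a-1-5p lies in MIR92A1 alone, as comparison of the hairpins shows, with both mature strands in capitals.
MIR92A1: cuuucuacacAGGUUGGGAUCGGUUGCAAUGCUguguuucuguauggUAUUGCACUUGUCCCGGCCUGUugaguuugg
MIR92A2: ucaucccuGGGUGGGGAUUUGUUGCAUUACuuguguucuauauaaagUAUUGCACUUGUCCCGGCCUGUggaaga
MIR25: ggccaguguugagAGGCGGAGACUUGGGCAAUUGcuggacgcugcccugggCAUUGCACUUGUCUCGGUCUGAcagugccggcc

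On GRCh38.p14 the 6 hairpins lay on the + strand of chromosome 13 in the order MIR17, MIR18A, MIR19A, MIR20A, MIR19B1 and MIR92A1. They spanned chr13:91350605-91351391, which is 787 bases, with gaps of 35 to 92 bases between neighbours. Their host, the non-coding gene MIR17HG (chr13:91347820-91354579 in GENCODE v29), has 3 annotated transcripts. The hairpins lay together within an exon of 2 of them but not of the other 1, and whether they lie in its intron was not checked.

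The values come from 2 edgeR result tables that the authors deposited, with 837 microRNAs for sgCYRANO over sgNT and 868 for ZSWIM8 KO over WT. Both are labelled as filtered for low values with no threshold given. The tables hold no values of single libraries, so levels below are group means in CPM, counts per 1000000 reads, recovered from the deposited columns, with no spread over replicates. Errors after ± are standard errors (SE) implied by the deposited p-values, for 3 libraries in each group. A strand was called where the adjusted p was under 0.05. The headers do not name the numerator, which was read as the second-named group, and if the tables run the other way both groups of a comparison change places. Library totals read from the smallest steps in the means lay between 860000 and 2490000 reads, so a group mean of 0 allows up to 0.425 to 0.788 CPM, with the limit set at 3 counts summed over a group, for counting error only. Of 6 erythroid and myeloid strands looked for, 6 were measured, with summed levels of 14610 CPM in sgCYRANO and 14217 in sgNT, and 16682 in ZSWIM8 KO and 17095 in WT, and 1 of them (miR-486-3p) was called, in ZSWIM8 KO. Of 12 strands typical of other tissues 8 were measured and none was called, at summed levels of 1090 CPM in sgCYRANO and 897 in sgNT, and 1566 in ZSWIM8 KO and 689.5 in WT, most of it miR-9-5p, which is typical of neural cells. Their part in the results was not tested. The tables hold no RNA level of CYRANO or ZSWIM8, and miR-7-5p had log2 fold changes of 2.52 in sgCYRANO and 2.35 in ZSWIM8 KO in the authors' deposited table of each comparison.

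Of the 10 strands, 8 had a row in both tables, and all 8 reached 100 CPM. The strand miR-18a-5p, the usual guide of its hairpin, had no row in either table used here, and miR-19a-5p, a passenger, had a row for sgCYRANO over sgNT only. A strand outside the list from the same transcript, the passenger miR-20a-3p, was also measured, and miR-19b-1-5p had no row in either.

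Of the miR-17~92 strands, miR-92a-3p, miR-20a-5p and miR-17-5p were among the 11 most abundant microRNAs of each line, and the others ranked lower. Summed over the measured members, without miR-18a-5p, the strands reached 212335 CPM in sgCYRANO and 214390 in sgNT, or 21.23% and 21.44% of all CPM. The sums were 179819 CPM in ZSWIM8 KO and 206403 in WT, or 17.98% and 20.64%. One strand, miR-92a-3p, which is known to restrain blood vessel growth, supplied 76.9% of the sum in sgCYRANO, 77.5% in sgNT, 74.9% in ZSWIM8 KO and 77.1% in WT. By level it ranked 2 among all microRNAs in sgCYRANO, sgNT and WT and 3 in ZSWIM8 KO.

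**Figure D1:**
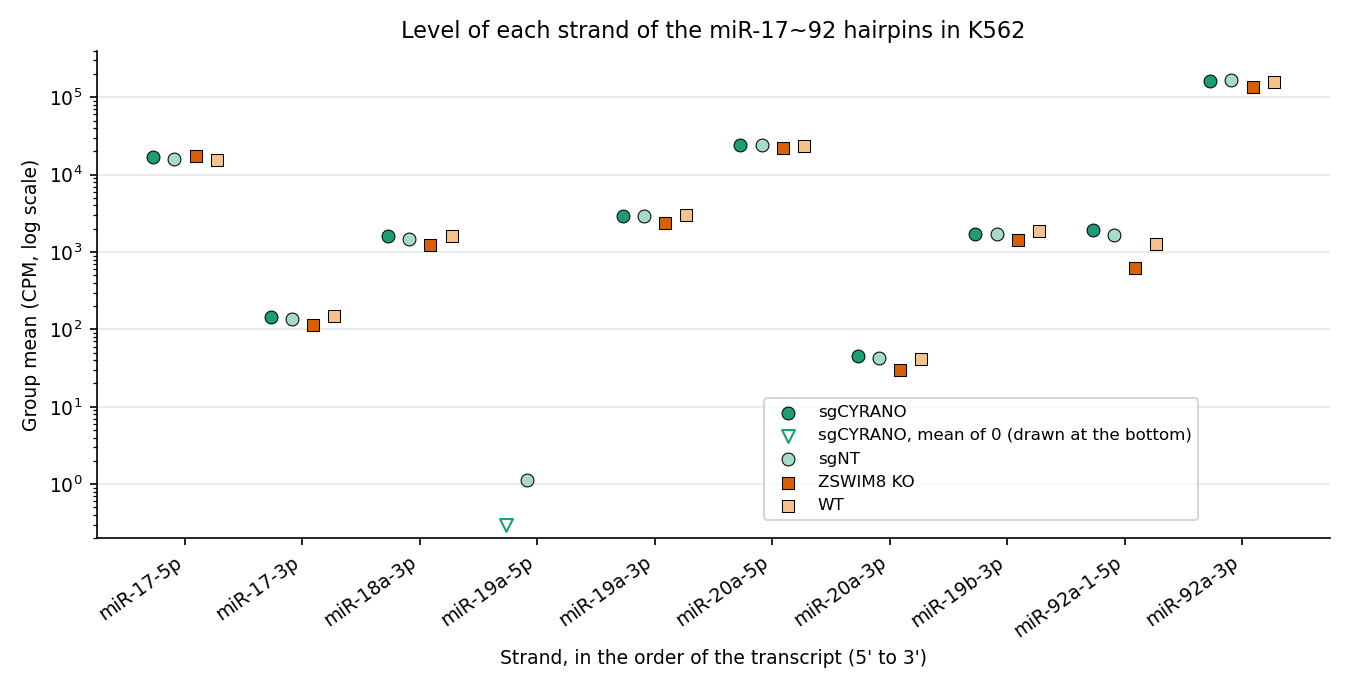
Group mean level (CPM, log scale) of each measured strand, in the order of the transcript, in sgCYRANO, sgNT, ZSWIM8 KO and WT. The 4 points of a strand lie close together except for miR-92a-1-5p, at 620.9 CPM in ZSWIM8 KO against 1290 in WT, and miR-19a-5p, at 0 in sgCYRANO.

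The order of levels was steep and nearly the same in all 4 groups, although the strands come from 1 transcript. After miR-92a-3p came miR-20a-5p, at 23862 CPM in sgCYRANO and 24296 in sgNT, and 22176 in ZSWIM8 KO and 23659 in WT. It stood below miR-92a-3p by a factor of 6.85 in sgCYRANO, 6.84 in sgNT, 6.07 in ZSWIM8 KO and 6.72 in WT. Next was miR-17-5p, at 16745 CPM in sgCYRANO and 15933 in sgNT, and 17213 in ZSWIM8 KO and 15692 in WT. The ratio of miR-20a-5p to miR-17-5p was 1.43 in sgCYRANO, 1.52 in sgNT, 1.29 in ZSWIM8 KO and 1.51 in WT.

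The miR-19 strands were far lower than the miR-17 family strands beside them. miR-19a-3p had 2955 CPM in sgCYRANO and 2965 in sgNT, and 2373 (ZSWIM8 KO) and 3015 (WT) in the other pair. miR-19b-3p had 1717 CPM in sgCYRANO and 1711 in sgNT, and 1417 in ZSWIM8 KO and 1896 in WT. Thus miR-92a-3p exceeded miR-19b-3p, both of which also have a copy on chromosome X, by a factor of 95.2 in sgCYRANO, 97.1 in sgNT, 95.1 in ZSWIM8 KO and 83.9 in WT.

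Passenger strands ranged widely. miR-92a-1-5p had 1918 CPM in sgCYRANO and 1675 in sgNT, and 620.9 in ZSWIM8 KO and 1290 in WT. miR-18a-3p had 1611 CPM in sgCYRANO and 1497 in sgNT, and 1237 in ZSWIM8 KO and 1608 in WT. These 2 strands and miR-19b-3p changed places in the order between groups, and without single libraries their neighbouring levels cannot be set against a spread. miR-17-3p was the lowest of the 8, at 144.01 CPM in sgCYRANO and 137.76 in sgNT, and 113 in ZSWIM8 KO and 151 in WT. miR-20a-3p lay lower still, at 45.2 CPM in sgCYRANO and 42.3 in sgNT, and 29.5 in ZSWIM8 KO and 42.0 in WT. All are levels per read, not per molecule, since the capture of each sequence by the library chemistry was not measured.

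In ZSWIM8 KO cells, 5 of the 8 measured members fell relative to WT, 0 rose and 3 did not pass the test. Of all microRNAs tested for ZSWIM8 KO over WT, 9.91% were called, 5.18% lower and 4.72% higher. Lower calls were 10.5% of microRNAs at 10 CPM or more and 16.7% of those at 100 CPM or more. The 5 were both miR-19 strands, both strands of the MIR92A1 hairpin and the passenger miR-18a-3p. Both miR-17 family guides were outside the calls. The members had a median log2 fold change of -0.36, beside 0.08 over all microRNAs of the table, and 7 of 8 lay below 0.

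The largest change in ZSWIM8 KO over WT was that of miR-92a-1-5p, at 620.9 CPM in ZSWIM8 KO and 1290 in WT. In the authors' deposited table its log2 fold change was -1.05 ± 0.13 (SE, 3 libraries per group; edgeR quasi-likelihood test, adjusted p = 2.61e-14), or 0.481-fold with a 95% interval of 0.404 to 0.573. Among the 304 microRNAs at 10 CPM or more its fold change ranked 8 from the lowest, and its p ranked 7 among all 868.

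The guide from the opposite arm, miR-92a-3p, changed far less, at 134670 CPM in ZSWIM8 KO and 159093 in WT. The authors' deposited table gave a log2 fold change of -0.24 ± 0.07 (edgeR, adjusted p = 0.0057). Because of its abundance its level fell by 24423 CPM, whereas the sum of the other 7 measured members was lower by less, a difference of -2162 CPM. Without miR-92a-3p the members summed to 45149 CPM in ZSWIM8 KO and 47311 in WT, a ratio of 0.954 against 0.871 with it. In bulk RNA of this kind, a lower share of reads, fewer cells that carry the strand and less of it per cell cannot be told apart.

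Both miR-19 strands fell by similar amounts. For miR-19b-3p the authors' deposited table gave -0.42 ± 0.11 (edgeR, adjusted p = 0.00242), and for miR-19a-3p -0.35 ± 0.10 (edgeR, adjusted p = 0.0106). The difference, miR-19a-3p minus miR-19b-3p, was 0.07 on the log2 scale, with a 95% interval of -0.22 to 0.37. miR-18a-3p, the passenger of a hairpin whose processing is known to be helped by the RNA-binding protein hnRNP A1, had -0.38 ± 0.11 in the authors' deposited table (edgeR, adjusted p = 0.0107).

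The remaining members did not pass. miR-17-5p had a log2 fold change of 0.13 ± 0.08 in the authors' deposited table (edgeR, adjusted p = 0.362), miR-20a-5p had -0.09 ± 0.08 (edgeR, adjusted p = 0.580 in the same deposited table), and neither interval reached a change of 1.5-fold. miR-17-3p had -0.42 ± 0.19 (edgeR, adjusted p = 0.151 in the authors' deposited table), as large as the value of miR-19b-3p but at a lower level and with a larger error. The passenger miR-20a-3p had -0.51 ± 0.29 in the authors' deposited table (edgeR, adjusted p = 0.323).

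**Figure D2:**
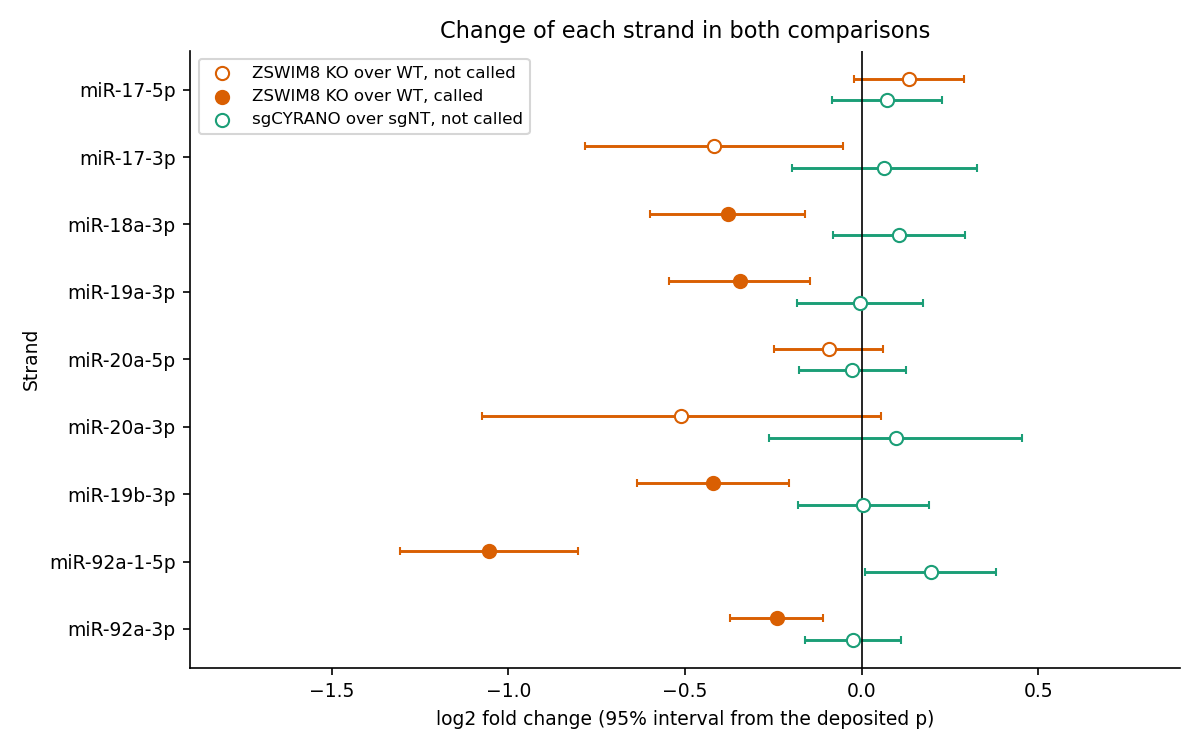
log2 fold change of each strand with its 95% interval, for ZSWIM8 KO over WT (orange, upper point) and sgCYRANO over sgNT (green, lower point); filled points were called. The 5 called strands lie between -0.24 and -1.05, and the green points at 10 CPM or more lie between -0.03 and 0.20; miR-19a-5p is not drawn.

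Within the transcript, guides did not all move alike in ZSWIM8 KO over WT. The log2 fold change of miR-17-5p exceeded that of miR-19a-3p by 0.48 (95% interval 0.23 to 0.73), that of miR-19b-3p by 0.55 (0.29 to 0.82) and that of miR-92a-3p by 0.37 (0.17 to 0.58). Between miR-20a-5p and miR-92a-3p the difference was 0.15 (-0.06 to 0.35), an interval that holds 0. Even miR-17-5p and miR-20a-5p, of the same seed, differed by 0.23 (0.01 to 0.45), with the lower bound close to 0. Among passengers, miR-92a-1-5p lay below miR-18a-3p by -0.68 (-1.01 to -0.34) and below miR-17-3p by -0.64 (-1.08 to -0.19). These intervals treat the errors of strands from the same libraries as independent, and the differences carry no p-value, since the strands were picked from 1 list with results known.

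These calls rest on a variance pooled over microRNAs. The degrees of freedom implied by the deposited F and p lay between 163 and 164 for 7 members where they could be read. With 4, the number that 6 libraries in 2 groups give, 0 of the 8 members were called (miR-92a-1-5p adjusted p = 0.0980 by the F test with edgeR's deposited F, the other 4 between 0.316 and 0.377). That F still holds the pooled variance, so this setting discards only the pooled degrees of freedom. It cannot show what the spread of each strand alone would give. In the other direction, the median log2 fold change of the 304 microRNAs at 10 CPM or more was 0.13, and centring on it gave 7 members called lower, adding miR-17-3p at -0.55 and miR-20a-5p at -0.22, with miR-17-5p at 0.00.

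**Figure D3:**
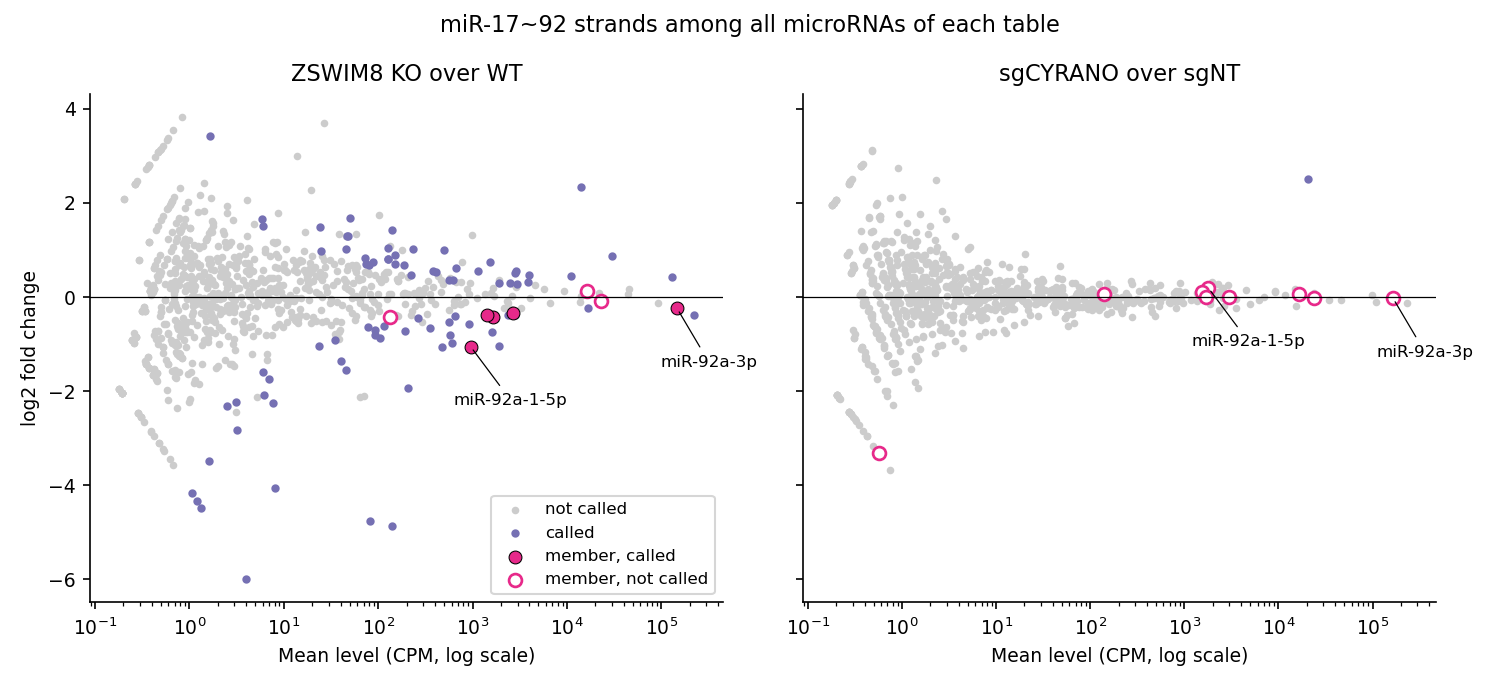
log2 fold change against mean level (CPM, log scale) of all microRNAs of each table, ZSWIM8 KO over WT on the left and sgCYRANO over sgNT on the right. Of the miR-17~92 strands, miR-92a-1-5p stands out on the left at -1.05, and on the right the 8 strands at 10 CPM or more lie within 0.20 of 0.

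Both arms of the MIR92A1 hairpin fell, and the change of miR-92a-1-5p was set against that of its partner arm. The 5p minus 3p difference in log2 fold change for MIR92A1 was -0.81 ± 0.14 (normal test, adjusted p = 1.81e-06 over 186 hairpins with both arms in the table). Reads of the 3p arm outnumbered those of the 5p arm by a factor of 217 in ZSWIM8 KO and 123 in WT. A difference between arms was called for 1 of 3 member hairpins, beside 5.38% of all hairpins tested. The test treats the errors of both arms as independent, although they were measured in the same 6 libraries. With 4 degrees of freedom behind F, an alternative chosen after seeing the data, the MIR92A1 difference did not pass (normal test, adjusted p = 0.433), nor did those of MIR25 and MIR32 described below (both adjusted p = 0.586). In this setting the SE of a strand widens most where its F is largest, so the loss of these calls is partly built in. The setting therefore cannot show whether the calls hold. Since miR-92a-3p can also come from MIR92A2, its share from MIR92A1 is not known.

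For MIR17, whose guide is the 5p arm, the difference had the opposite sign, and here too the guide gained on its passenger. The difference did not pass over all hairpins. The 5p minus 3p difference was 0.55 ± 0.20 (normal test, adjusted p = 0.0986), and the 5p arm outnumbered the 3p arm by a factor of 152 in ZSWIM8 KO and 104 in WT. With hairpins under 10 CPM in an arm left out, the adjusted p was 0.0323 over 61 hairpins, so the call depends on that filter. For MIR20A the difference was 0.42 ± 0.30 (normal test, adjusted p = 0.672), with the 5p arm ahead by a factor of 753 in ZSWIM8 KO and 563 in WT. In each of these 3 hairpins the ratio of the abundant to the scarce arm was thus higher in ZSWIM8 KO than in WT, although 1 passed. Across hairpins with both arms at 10 CPM or more, the less abundant arm was called lower in 6 of 61 (9.84%) and higher in 7, with a median log2 fold change of 0.02.

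**Figure D4:**
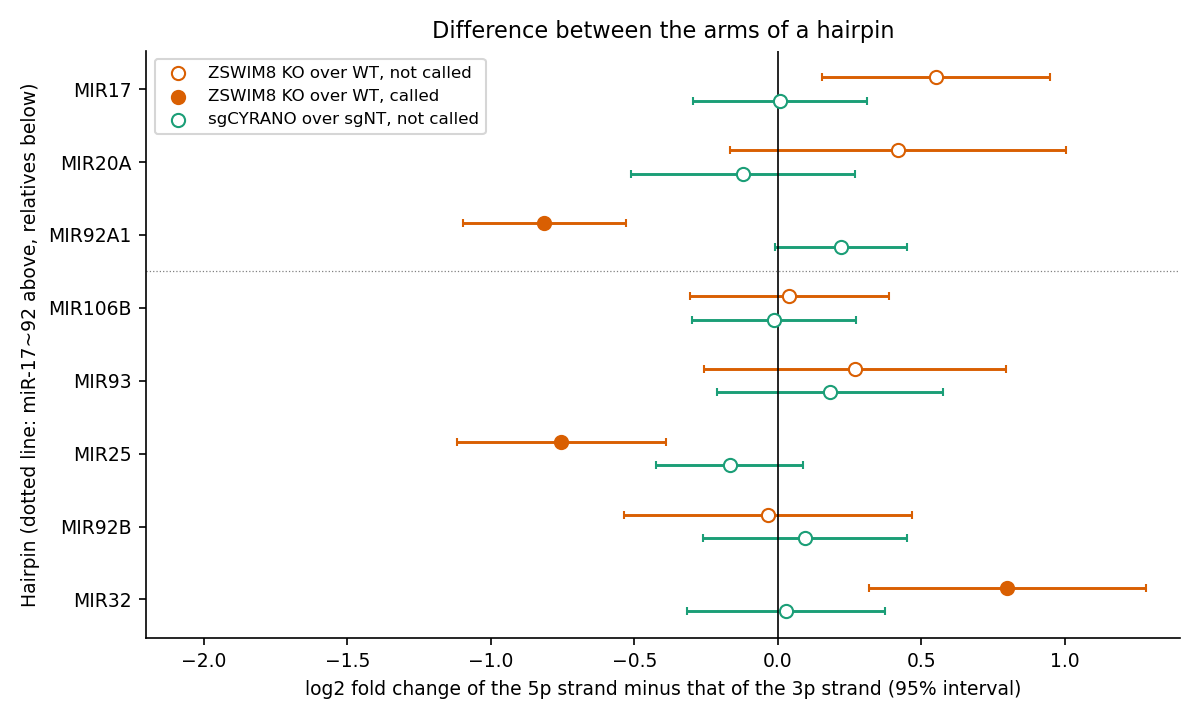
log2 fold change of the 5p strand minus that of the 3p strand, with its 95% interval, for hairpins of miR-17~92 (above the dotted line) and related hairpins (below), in ZSWIM8 KO over WT (orange) and sgCYRANO over sgNT (green). Filled points passed the threshold: MIR92A1 at -0.81 and MIR25 at -0.75 to the left, and MIR32 at 0.80 to the right.

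The closest relatives by sequence are the miR-106b~25 cluster, within a gene on chromosome 7, and the cluster of miR-106a and its neighbours on chromosome X. Of 6 strands of miR-106b~25 in ZSWIM8 KO over WT, 2 fell, 0 rose and 4 did not pass, and the 2 were both strands of MIR25, the counterpart of MIR92A1. miR-25-5p was at 407 CPM in ZSWIM8 KO and 805 in WT, with -0.98 ± 0.17 in the authors' deposited table (edgeR, adjusted p = 2.08e-07). miR-25-3p was at 15333 CPM in ZSWIM8 KO and 17966 in WT, with -0.23 ± 0.08 in the authors' deposited table (edgeR, adjusted p = 0.0455). Its arms likewise differed, by -0.75 ± 0.19 (normal test, adjusted p = 0.00145), and the 3p arm led by a factor of 37.6 in ZSWIM8 KO and 22.3 in WT.

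Set side by side, the strands of MIR92A1 and MIR25 had nearly equal fold changes in ZSWIM8 KO over WT. miR-92a-3p minus miR-25-3p was -0.01 (95% interval -0.22 to 0.19), and miR-92a-1-5p minus miR-25-5p was -0.07 (-0.49 to 0.34). The similarity of the 5p strands goes with 10 shared bases of 21, fewer than the 3p strands share. Exchange of reads between these strands was not tested.

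The other hairpins with the miR-92 seed were mixed. miR-32-3p, the passenger of MIR32 on chromosome 9, was at 67.9 CPM in ZSWIM8 KO and 119 in WT, with -0.80 ± 0.21 in the authors' deposited table (edgeR, adjusted p = 0.00322). Its guide miR-32-5p was at 697 CPM in ZSWIM8 KO and 699 in WT, so the arms differed by 0.80 ± 0.25 (normal test, adjusted p = 0.0215). MIR92B showed neither, with -0.08 ± 0.10 for miR-92b-3p and -0.12 ± 0.24 for miR-92b-5p in the authors' deposited table, and an arm difference of -0.04 ± 0.26 (normal test, adjusted p = 0.986). In all, 3 of 4 hairpins with a miR-92 seed strand and both arms measured passed the test between arms, beside 10 of all 186 hairpins (5.38%). These hairpins were gathered with results known, so the count is a description.

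By seed, calls were counted beside the 9.91% of all microRNAs called in ZSWIM8 KO over WT (5.18% lower). Of 8 measured strands with the seed AAAGUGC, 0 were called, which is near the background and no result about the family, and the 4 at 10 CPM or more had a median log2 fold change of 0.10. Among them miR-93-5p had 0.25 ± 0.10 (edgeR, adjusted p = 0.0950 in the authors' deposited table) and miR-106b-5p had 0.07 ± 0.14 in the same deposited table. Both measured strands with the miR-19 seed GUGCAAA fell, and of 5 with the miR-92 seed AUUGCAC 2 fell, both also named above. Whether the families differ from one another was not tested.

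The X-linked cluster was barely present. Of its 10 strands 3 were measured, with miR-363-3p at 2.73 CPM in ZSWIM8 KO and 6.50 in WT, and 6.99 in sgCYRANO and 11.7 in sgNT. miR-106a-5p, which differs from miR-17-5p by C1A alone, had 2.76 CPM in ZSWIM8 KO and 4.65 in WT, and 3.69 in sgCYRANO and 3.74 in sgNT. None of the 3 was called in either table. MIR19B2 and MIR92A2 belong to this cluster.

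In sgCYRANO cells, 0 of 9 measured members were called relative to sgNT, where 0.119% of the table was called (edgeR quasi-likelihood test, adjusted p under 0.05). At an unadjusted p under 0.05 there were 2 of the 9 members, beside 49 of the 837 microRNAs of the table. Of these 2, miR-19a-5p entered the table through sgNT alone, so its p is no evidence of a change. Of the 9, 8 had a 95% interval that lay within 1.5-fold in either direction, so larger changes of those strands lie outside the intervals. Here too the intervals rest on a variance pooled over microRNAs. The implied degrees of freedom lay between 111 and 3348 for 4 members where they could be read. The median log2 fold change of the 9 was 0.01, as over all microRNAs.

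Even the abundant guides stood close to 0. In the authors' deposited table, log2 fold changes were -0.02 ± 0.07 for miR-92a-3p, -0.03 ± 0.08 for miR-20a-5p and 0.07 ± 0.08 for miR-17-5p. For the miR-19 strands it was 0.01 ± 0.09 (miR-19b-3p) and -0.00 ± 0.09 (miR-19a-3p) in the authors' deposited table. Passengers were similar, with 0.11 ± 0.10 for miR-18a-3p, 0.06 ± 0.13 for miR-17-3p and 0.10 ± 0.18 for miR-20a-3p in the authors' deposited table.

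The 2 strands at an unadjusted p under 0.05 were miR-92a-1-5p and miR-19a-5p. miR-92a-1-5p, at 1918 CPM in sgCYRANO and 1675 in sgNT, had 0.20 ± 0.09 in the authors' deposited table (edgeR, adjusted p = 0.816), opposite in sign to its fall in ZSWIM8 KO. miR-19a-5p had a mean of 0 CPM in sgCYRANO and 1.13 CPM in sgNT, which is 6 reads over the 3 sgNT libraries, 2 in each. It entered the table through sgNT alone. The sgNT mean was 1.99 times that limit of 3 counts for sgCYRANO, without counting error on the 6 sgNT reads. With its entry resting on sgNT, this ratio sets no minimum fall. The interval from its p-value ran from 0.0124-fold to 0.804-fold and rests on the same entry, so it sets no minimum fall either. The adjusted p of miR-19a-5p was also 0.816 (edgeR, the authors' deposited table).

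A difference between arms was called for 0 of 4 member hairpins, beside 0.562% of all 178 tested. Among the 4 was MIR19A, whose 5p arm, miR-19a-5p, had 0 CPM in sgCYRANO and entered through sgNT alone. For MIR92A1 the 5p minus 3p difference was 0.22 ± 0.12 (normal test, adjusted p = 0.888), and the 3p arm led by a factor of 85.2 in sgCYRANO and 99.2 in sgNT. For MIR17 it was 0.01 ± 0.16 (normal test, adjusted p = 0.988). Related strands of miR-106b~25 were likewise not called, 0 of 6.

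Because the comparisons use separate libraries, the difference between them was tested for the 753 microRNAs in both tables. It was called, with ZSWIM8 KO over WT the lower, for 3 of 8 members, beside 6.64% in either direction and 2.92% in this one. The largest was miR-92a-1-5p, at -1.25 ± 0.16 (normal test, adjusted p = 8.01e-13), followed by miR-18a-3p at -0.49 ± 0.15 (normal test, adjusted p = 0.0203) and miR-19b-3p at -0.43 ± 0.14 (normal test, adjusted p = 0.0494). For miR-19a-3p the difference was -0.34 ± 0.14 (normal test, adjusted p = 0.1248) and for miR-92a-3p -0.22 ± 0.10 (normal test, adjusted p = 0.207), so neither passed on the deposited scale. With each comparison centred on its median the call turned, to -0.49 for miR-19a-3p (normal test, adjusted p = 0.00788) and -0.37 for miR-92a-3p (normal test, adjusted p = 0.00425). With 4 degrees of freedom behind F, 0 of the 8 members passed (miR-92a-1-5p adjusted p = 0.0649, normal test), where the widened SE again builds in part of the loss. miR-17-5p and miR-20a-5p differed by 0.06 ± 0.11 and -0.07 ± 0.11, with adjusted p-values of 0.880 and 0.856 (normal test), and centring turned the sign for miR-17-5p, to -0.09.

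Outside the transcript, the microRNAs most like its guides over both fold changes were found among 127 others at 100 CPM or more in both tables. They were miR-424-3p, miR-142-3p, miR-1273h-3p, miR-339-5p and miR-130b-5p, at distances of 0.0419 to 0.1098 on the log2 scale from the median of 5 measured guides, -0.00 in sgCYRANO over sgNT and -0.24 in ZSWIM8 KO over WT. None of these 5 was called in ZSWIM8 KO over WT, and likeness over 2 comparisons is a description only.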

How the data were processed

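NEBNext small-RNA libraries were made from total RNA (miRNeasy kit), per the labels' protocols. Per the submitters' processing notes, bcl2fastq, FastQC 0.11.2, STAR, featureCounts, edgeR and hg19 were used, in roles not given there. The authors deposited, per the file headers, a log2 fold change and mean log2 CPM, an F score, a p-value and an adjusted p-value per microRNA. The design had assumed that counts per library might be given; the deposited tests were used instead. Benjamini-Hochberg adjustment over all microRNAs returned those adjusted p-values with differences of at most 1.092e-06. Group mean CPM came from inverting the mean log2 CPM (prior count 2) and the log2 fold change (prior count 0.125), and sums to 1000000 in each group. Group totals read from whole-read steps (up to 1 CPM, tolerance 0.0015) were 5290000 reads for sgCYRANO, 5490000 for sgNT, 7060000 for ZSWIM8 KO and 3810000 for WT. Each SE was set so that the log2 fold change divided by it is the normal deviate that the p-value implies, and 95% intervals follow from it. Arm differences and differences between comparisons were tested as normal deviates, two-sided, with Benjamini-Hochberg adjustment, and the procedure was tested on simulated data (Python 3.11.15, pandas 2.3.3, scipy 1.17.1). Named strands are all members, the other strands of their hairpins, relatives by cluster or seed at 10 CPM or more, and the 5 most alike; lower relatives were named after their values were seen. Members, lists and tests were chosen with earlier results of these data known. The deposited p-values rest on a spread between these libraries that was pooled over microRNAs, not on that of each strand alone. That spread may be technical.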

Additional observations from a re-analysis of the deposited data

How the results depend on the processing

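Fold changes were recomputed after centring on the median or a trimmed mean, without microRNAs under 10 CPM, and with 4 denominator degrees of freedom, and errors also from F. Of 204 recomputed values, 174 stayed the same, 12 lost a call or count of calls, 9 gained one, 5 moved and 4 changed sign. Of the 174, 33 were group means, which have no direction or call. Others, such as those for sgCYRANO over sgNT, had no call to lose. The 4 were never called: miR-19a-3p in sgCYRANO over sgNT (0.0176 centred on the median, 0.00553 on the trimmed mean), miR-17-5p in ZSWIM8 KO over WT (-0.00772 on the trimmed mean) and its difference between comparisons (-0.0894 on the median). With 4 degrees of freedom, 0 members were called in ZSWIM8 KO over WT, and likewise 0 member hairpins between arms and 0 members between comparisons, both tried after seeing the data. This setting keeps the pooled variance in F, and any SE taken from it widens most where F is largest. It does not decide whether those calls hold. With both arms at 10 CPM or more, 2 member hairpins (MIR17, MIR92A1) differed between arms. Centred on the median, 5 members differed between the comparisons, adding miR-92a-3p and miR-19a-3p. Without miR-92a-3p the summed CPM was 48952 in sgCYRANO, 48216 in sgNT, 45149 in ZSWIM8 KO and 47311 in WT, by its construction. With no prior count, the sgNT mean of miR-19a-5p was 4.66 CPM, since the inversion then takes the deposited mean at face value. No paired analysis was possible because the tables hold no values of single libraries; leaving out replicates, the replicate block and DESeq2 were not run for the same reason. Depth limits miR-19a-5p and the X-linked strands, which rest on few reads.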
